A study of Mus musculus with 7 samples.

Results

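The genes described here control the decision of a cell to enter S phase. They are 5 cyclin-dependent kinase (CDK) inhibitors (Cdkn1a, Cdkn1b, Cdkn1c, Cdkn2a and Cdkn2c), the D-type cyclins Ccnd1 and Ccnd2, their partner kinases Cdk4 and Cdk6, and the retinoblastoma gene Rb1. They were chosen by name as an axis of cell cycle control, through probes whose platform annotation gives that symbol and no other. All 10 were on the array, out of 18193 genes with such a probe, and all 10 were among the 14453 genes tested. The 10 genes had 25 probes in all. The brightest probe of each gene, by its mean over all samples, stands for the gene, and the other probes are given beside it.

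RNA came from 7 samples of EGFP-positive glioma cells, measured on Affymetrix mouse arrays. In every sample the tumour cells had a C57/Bl6 background and overexpressed PDGF-B together with EGFP, from gliomas of early onset and low grade, and all were grown in NOD/SCID hosts, which lack functional B and T cells. Secondary gliomas (n = 4) arose after primary glioma cells were grafted, and tertiary gliomas (n = 3) after secondary glioma cells were grafted again. Tumours were taken at the onset of symptoms, dissociated with trypsin and sorted for EGFP, which is expressed from the same transcript as PDGF-B. The labels name neither the ages of the mice nor the primary tumour behind each graft. The samples of a group are named biological replicates, with no word on whether they share a primary tumour or donor, so p-values measure the spread between these samples.

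Growth factor signals raise the D-type cyclins, which bind Cdk4 or Cdk6. The active kinases phosphorylate the Rb protein, which otherwise holds E2F transcription factors and keeps the genes of DNA replication silent. Inhibitors of the INK4 family (Cdkn2a to Cdkn2d) bind Cdk4 and Cdk6 directly, whereas those of the CIP/KIP family (Cdkn1a, Cdkn1b and Cdkn1c) bind complexes of cyclins and kinases. The axis is commonly altered in human glioma, by loss of CDKN2A, by gain of CDK4 or CDK6, or by loss of RB1.

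All values are the authors' log2 expression values, and a difference of 1 is a doubling of signal. Medians of the 7 arrays lay between 5.57 and 5.64, and precision is limited by having 7 arrays. The sorted cells carried markers of the oligodendrocyte lineage: the mean of 9 tested markers of oligodendrocyte precursors and PDGF glioma was 10.0 to 10.5 in secondary and 10.0 to 10.5 in tertiary gliomas. Markers of microglia and macrophages were present as well. The mean of 18 tested genes of this list was 10.3 to 11.03 in secondary and 6.02 to 6.96 in tertiary gliomas, and 18 of 18 fell. Ptprc, the pan-leukocyte phosphatase, changed by -5.37 ± 0.32 (log2, SE, n = 4 and 3; limma adjusted p = 8.13e-05) and the macrophage protein Cd68 by -3.97 ± 0.24 (adjusted p = 8.65e-05). Myelin genes were lower in the same tumours, with Mog and Mag called among 5 tested and list means of 8.36 to 9.13 against 6.56 to 7.59. Of 7 lymphocyte markers 6 were measured, and only 2 passed the filter on dim probes. The list means of these 2 were 4.27 to 4.92 in secondary and 4.21 to 4.33 in tertiary gliomas. None of 6 endothelial (5.02 to 5.39 against 4.71 to 4.97), 6 neuron (5.51 to 6.12 against 5.33 to 6.49) or 7 astrocyte markers (6.82 to 7.94 against 6.23 to 7.29) was called.

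Tertiary and secondary gliomas were compared with limma over all 14453 genes, with Benjamini-Hochberg adjustment and a threshold of 0.05. None of the 10 genes was called. The background was 7.38% of the genes in the fit, with 1.04% called higher and 6.33% called lower. Before adjustment, 3 of the 10 had a p under 0.05 (Cdk4, Cdk6 and Cdkn2c), as did 23.8% of all genes. In 2 of the 10, Cdk4 and Cdk6, secondary and tertiary values were fully apart, and this held for 21.9% of all genes. These shares lie near the background. The median difference over the 10 genes was 0.16, with 6 above 0 and 4 below, and over all genes it was 0.09 with 60.6% above 0.

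**Figure D1:**
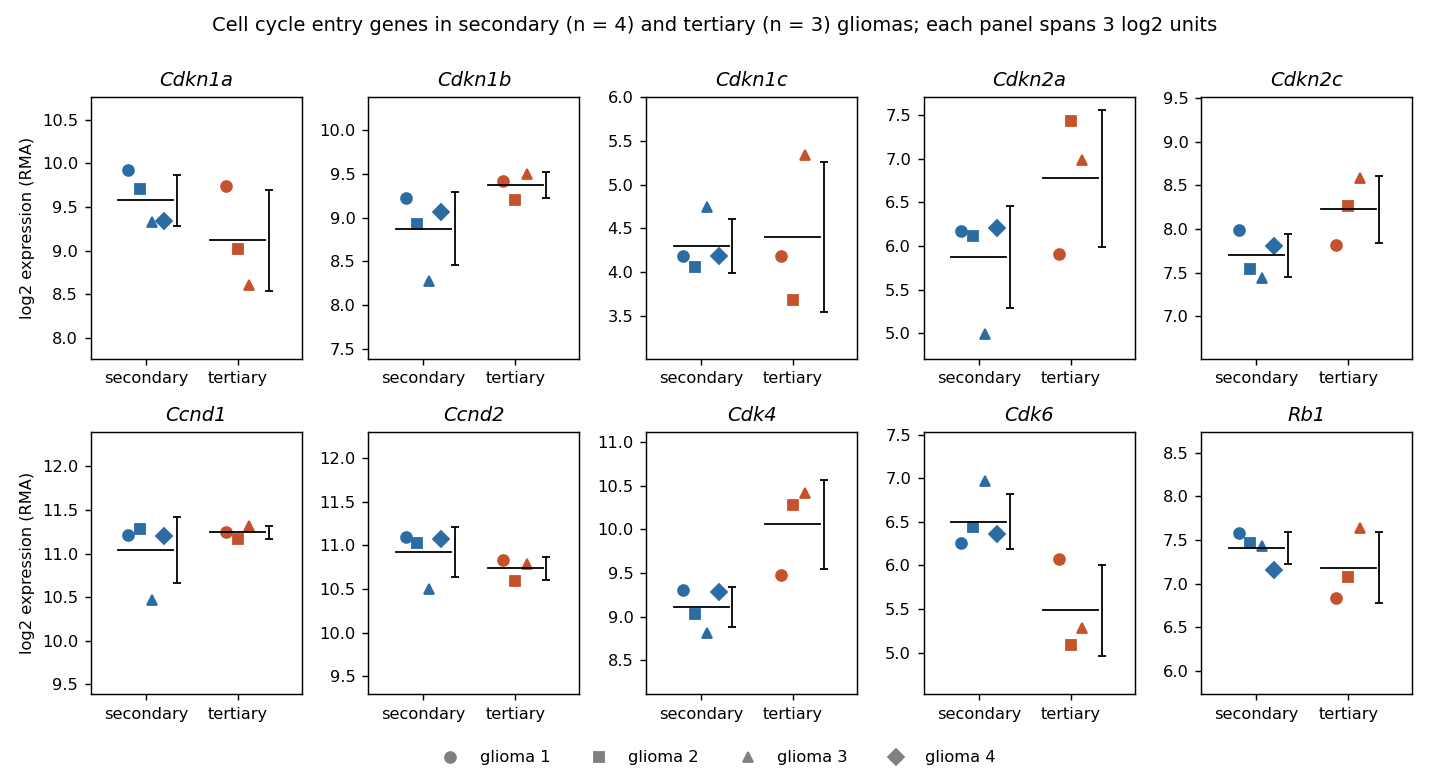
Log2 expression of each gene (vertical axis, 1 panel a gene, 3 log2 units high) in 4 secondary and 3 tertiary gliomas, with marker shapes for the sample number, lines for group means and bars for 1 SD. The groups are separate in the Cdk4 panel (8.81 to 9.31 against 9.48 to 10.42) and, in the other direction, in the Cdk6 panel (6.25 to 6.96 against 5.09 to 6.08), and the groups overlap in the other panels.

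The kinases Cdk4 and Cdk6 had the lowest p-values of the axis and opposite signs. Cdk4, the catalytic partner of D-type cyclins in most proliferating cells, was at 9.31, 9.04, 8.81 and 9.28 in secondary gliomas 1 to 4 and at 9.48, 10.28 and 10.42 in tertiary gliomas 1 to 3. Tertiary glioma 1 was close to the highest secondary value, and tertiary gliomas 2 and 3 stood clearly above. The difference was 0.95 ± 0.25 (SE), a ratio of 1.93 (95% confidence interval 1.29 to 2.89), with an adjusted p of 0.0666 in limma. This probe, 1422441_x_at, carries the suffix Affymetrix gives to sets that may cross-hybridise. The other Cdk4 probes gave 0.95 and 1.06, and none of the 3 overlapped between groups. Tested each on its own, the 3 probes had adjusted p-values from 0.0747 to 0.112 in limma.

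Cdk6, the sister kinase that is prominent in blood cells and in progenitors, was at 6.25, 6.44, 6.96 and 6.35 in secondary and at 6.08, 5.09 and 5.28 in tertiary gliomas. Every tertiary value was below every secondary value, and secondary glioma 3 had the highest of all. The difference was -1.02 ± 0.27 (SE), a ratio of 0.494 (95% confidence interval 0.318 to 0.769), with an adjusted p of 0.0713 in limma. The other Cdk6 probes gave larger differences. Probe 1460291_at was at 5.96, 7.10, 6.84 and 6.46 in secondary and 5.24, 4.00 and 4.35 in tertiary gliomas. Its log2 difference was -2.06 ± 0.36. Probe 1435338_at was at 5.87, 5.34, 6.31 and 5.38 against 4.35, 3.35 and 3.70, and its tertiary mean of 3.80 lay under the level of 3.99 used to leave out dim probes. It passed that filter through its secondary values, so its difference is given as a description, with no test. In limma with every probe tested on its own, where 5.85% of 27501 probes were called, 1460291_at fell (adjusted p = 0.0134). With the probes of a gene averaged, the Cdk6 difference was -1.67 and passed the threshold, and 7.57% of all genes were called. That average includes the dim probe, so it too is given as a description. Between the brightest probe and 1460291_at, the call of a Cdk6 difference thus depended on which was read, and its sign did not.

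Microglia and macrophage markers differed in the same direction as Cdk6 between the groups, at a median of -4.21 over 18 genes. Secondary glioma 3 had the highest marker mean and the highest value of the brightest Cdk6 probe, while 1460291_at was highest in secondary glioma 2. Among tertiary gliomas 1 to 3 the marker means were 6.82, 6.96 and 6.02, and Cdk6 was at 6.08, 5.09 and 5.28. The part of microglia and macrophages in the Cdk6 difference was not tested. In sorted bulk samples, fewer cells of a type and less RNA per cell cannot be told apart.

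Both kinases passed the threshold when tertiary glioma 1 was left out. The limma difference of Cdk4 was then 1.24 (adjusted p = 0.00827) and that of Cdk6 was -1.31 (adjusted p = 0.0140), 2 of the 10 genes against 12.8% of all genes called in that fit. Without tertiary glioma 2 the differences were 0.84 for Cdk4 and -0.82 for Cdk6 (adjusted p = 0.214 and 0.227 in limma), and without tertiary glioma 3 they were 0.77 and -0.92 (adjusted p = 0.204 and 0.210).

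**Figure D2:**
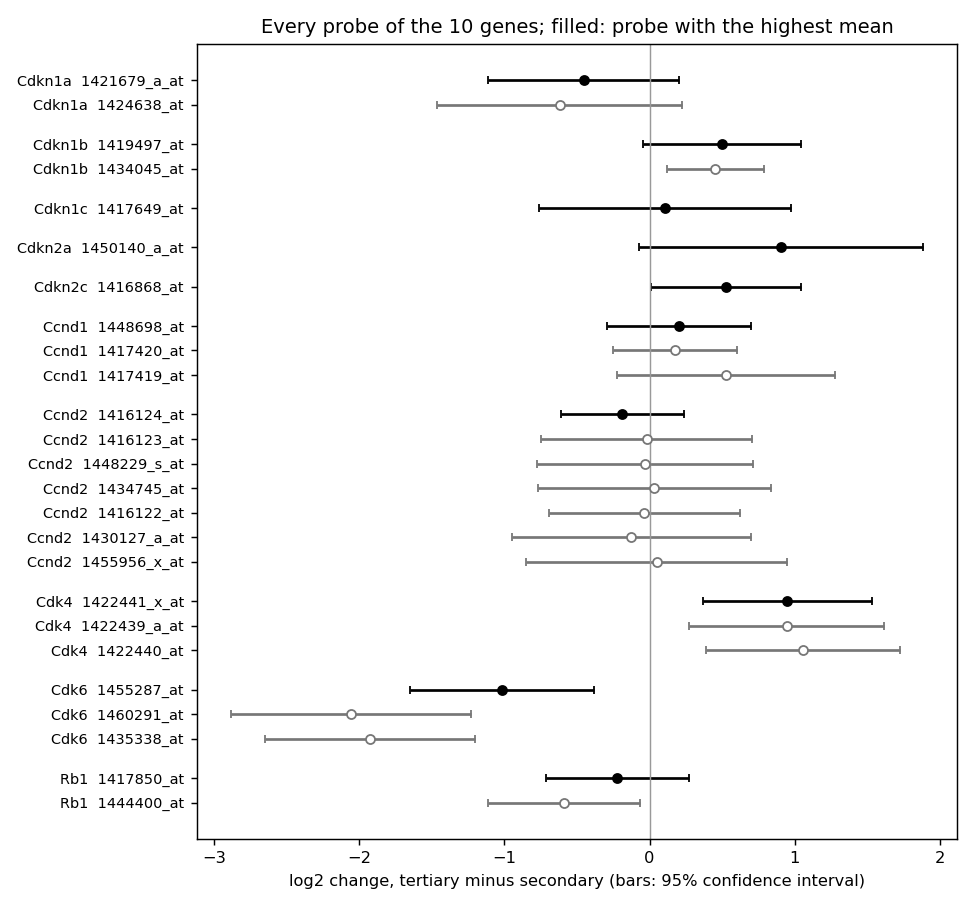
Log2 difference, tertiary minus secondary, of all 25 probes of the 10 genes (horizontal axis), with 95% confidence intervals from limma and filled points for the probe with the highest mean. All 3 Cdk4 probes lie above 0, and the brightest Cdk6 probe and 1460291_at below it. Cdk6 probe 1435338_at passed the filter on dim probes through its secondary values. It is drawn as a description, and its interval is no test. The 7 Ccnd2 probes lie between -0.19 and 0.05.

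The sequences upstream of these kinase genes are shown because these 2 genes had the lowest p-values of the axis. They are the 250 bases before the transcription start in the RefSeq promoter table, build GRCm38.p6, 5′ to 3′ along the gene. The table held 6 of the 10 genes, with 9 starts. Capitals mark the E-box CACGTG, a palindrome that Myc family and related factors can bind, or an E2F motif (TTTCCCGC, TTTCGCGC, TTTGGCGC or TTTGCCGC, searched on both strands, with no overlap between the motif kinds).
Cdk4 (chr10:127063285-127063534, plus strand): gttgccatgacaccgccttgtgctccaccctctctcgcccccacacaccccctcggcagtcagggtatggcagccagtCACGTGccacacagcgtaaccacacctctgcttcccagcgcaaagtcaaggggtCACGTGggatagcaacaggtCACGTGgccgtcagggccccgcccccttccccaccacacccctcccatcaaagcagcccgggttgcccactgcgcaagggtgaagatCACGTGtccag
Cdk6 (chr5:3343643-3343892, plus strand): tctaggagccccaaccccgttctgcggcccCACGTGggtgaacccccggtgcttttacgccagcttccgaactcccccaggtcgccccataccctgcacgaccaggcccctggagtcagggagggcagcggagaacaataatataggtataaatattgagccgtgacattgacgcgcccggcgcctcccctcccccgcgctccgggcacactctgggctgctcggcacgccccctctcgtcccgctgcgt
The Cdk4 sequence held 4 E-boxes, which began 172, 118, 98 and 11 bases before the start, and the Cdk6 sequence held 1, at 220 bases. An E-box was found in 6.02% of the 32851 promoters of the table, and 3 or more of them in 0.0609%. A match describes the letters only.

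The D-type cyclins Ccnd1 and Ccnd2 had small differences between the groups. Ccnd3 was counted among the other cyclins and kinases of G1 and S phase. Ccnd1, the cyclin most directly raised by growth factor signalling, was at 11.21, 11.29, 10.47 and 11.20 in secondary and 11.25, 11.17 and 11.31 in tertiary gliomas. Secondary glioma 3 stood apart below the other samples, which lay between 11.17 and 11.31. The difference was 0.20 (95% confidence interval -0.29 to 0.70, adjusted p = 0.603 in limma), and 0.01 without secondary glioma 3. The other Ccnd1 probes gave 0.18 and 0.53, with the same sample lowest.

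Ccnd2, the D-type cyclin typical of neural and glial progenitors, was at 11.09, 11.02, 10.50 and 11.08 in secondary and 10.83, 10.59 and 10.79 in tertiary gliomas. The tertiary values lay between those of secondary glioma 3 and the other secondary gliomas. The difference was -0.19 (95% confidence interval -0.61 to 0.23, adjusted p = 0.563 in limma). It was -0.33 without secondary glioma 3 and -0.12 without tertiary glioma 2. Over its 7 probes the difference ran from -0.19 to 0.05, 5 below 0 and 2 above.

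The INK4 inhibitors Cdkn2a and Cdkn2c had tertiary means above the secondary means, short of the threshold. Cdkn2a encodes the INK4 protein of senescence and, from another reading frame, Arf. It was at 6.17, 6.11, 4.99 and 6.21 in secondary and 5.91, 7.43 and 6.99 in tertiary gliomas. The transcript was measured in all 7 samples above the level used to leave out dim probes. Tertiary gliomas 2 and 3 were above every secondary value, tertiary glioma 1 was not, and secondary glioma 3 was the lowest. The difference was 0.90 ± 0.43 (SE; adjusted p = 0.243 in limma), and it was 1.34 with tertiary glioma 1 left out, 0.58 with tertiary glioma 2 left out and 0.61 with secondary glioma 3 left out. A fit with both secondary glioma 3 and tertiary glioma 1 left out was added after seeing the data, and the Cdkn2a difference there was 1.05. In that fit Cdk4, Cdk6 and Cdkn2a were called, 3 of the 10 genes against 10.8% of all genes. Both samples held an extreme of their group in these 3 genes, so the calls describe the values and are no independent test.

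The 2 Cdkn2a transcripts start 12427 bases apart in the promoter table, and the annotation does not say which of them the single probe reads. Both upstream sequences are shown because the value may stem from either promoter.
Cdkn2a, upstream start (chr4:89294620-89294869, minus strand): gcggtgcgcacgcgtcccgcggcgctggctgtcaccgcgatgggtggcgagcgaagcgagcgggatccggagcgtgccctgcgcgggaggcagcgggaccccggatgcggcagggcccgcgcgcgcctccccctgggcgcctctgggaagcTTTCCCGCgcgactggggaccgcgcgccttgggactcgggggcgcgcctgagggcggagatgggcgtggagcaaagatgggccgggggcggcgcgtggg
Cdkn2a, downstream start (chr4:89282193-89282442, minus strand): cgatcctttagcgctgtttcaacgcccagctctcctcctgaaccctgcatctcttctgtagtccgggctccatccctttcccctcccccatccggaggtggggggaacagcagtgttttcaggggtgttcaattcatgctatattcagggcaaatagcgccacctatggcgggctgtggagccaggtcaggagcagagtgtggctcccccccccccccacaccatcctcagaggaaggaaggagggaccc
The upstream start had 1 E2F motif, TTTCCCGC, 99 bases before the start, and the downstream start had none. Of all promoters in the table, 1.86% held an E2F motif, and 1 of the 9 starts of the axis did.

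Cdkn2c, an INK4 inhibitor expressed in dividing progenitors, was at 7.99, 7.54, 7.45 and 7.81 in secondary and 7.82, 8.27 and 8.59 in tertiary gliomas. Tertiary glioma 1 fell within the secondary range and the other tertiary samples above it. The difference was 0.53 ± 0.22 (SE; adjusted p = 0.198 in limma), 0.73 without tertiary glioma 1 and 0.34 without tertiary glioma 3. The other INK4 genes were not called. Cdkn2b differed by -0.10 ± 0.34, or 0.26 without tertiary glioma 1, and Cdkn2d by 0.25 ± 0.24, or -0.0049 without tertiary glioma 3 (log2 ± SE).

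The CIP/KIP inhibitors did not share a sign. Cdkn1a, a stress-induced brake on the cell cycle, was at 9.92, 9.70, 9.33 and 9.34 in secondary and 9.74, 9.01 and 8.60 in tertiary gliomas. Tertiary gliomas 2 and 3 had the lowest values and tertiary glioma 1 lay near the top of the secondary range. The difference was -0.45 ± 0.28 (SE; adjusted p = 0.369 in limma), -0.77 without tertiary glioma 1 and -0.20 without tertiary glioma 3. Its other probe gave -0.62.

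Cdkn1b, the inhibitor that restrains oligodendrocyte precursors from dividing, was at 9.23, 8.93, 8.27 and 9.07 in secondary and 9.42, 9.20 and 9.50 in tertiary gliomas. The groups touched, with secondary glioma 1 just above tertiary glioma 2. The difference was 0.50 ± 0.23 (SE; adjusted p = 0.240 in limma) and 0.30 without secondary glioma 3. Its other probe, 1434045_at, gave 8.71, 8.70, 8.54 and 8.87 against 9.11, 9.05 and 9.32. These values did not overlap, with a difference of 0.45 ± 0.14 and an adjusted p of 0.121 in limma.

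Cdkn1c, an imprinted inhibitor of differentiating cells, had a mean of 4.34, close to the level of 3.99 used to leave out dim probes. Its values were 4.19, 4.05, 4.75 and 4.19 in secondary and 4.19, 3.68 and 5.34 in tertiary gliomas. The difference of 0.11 ± 0.38 (SE; adjusted p = 0.892 in limma) had no stable sign: it was -0.36 without tertiary glioma 3, 0.47 without tertiary glioma 2, 0.22 without tertiary glioma 1, 0.26 without secondary glioma 3 and from 0.03 to 0.07 without the other secondary gliomas.

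Rb1, the pocket protein that the kinases inactivate, was at 7.58, 7.46, 7.43 and 7.15 in secondary and 6.84, 7.08 and 7.64 in tertiary gliomas. The tertiary values spanned the whole secondary range. The difference was -0.22 ± 0.21 (SE; adjusted p = 0.558 in limma), -0.05 without tertiary glioma 1 and -0.45 without tertiary glioma 3. Its dimmer probe, 1444400_at, was at 6.20, 5.77, 6.59 and 5.87 against 5.48, 5.32 and 5.76. The groups were narrowly apart there, and the difference was -0.59 ± 0.23 (adjusted p = 0.177 in limma).

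**Figure D3:**
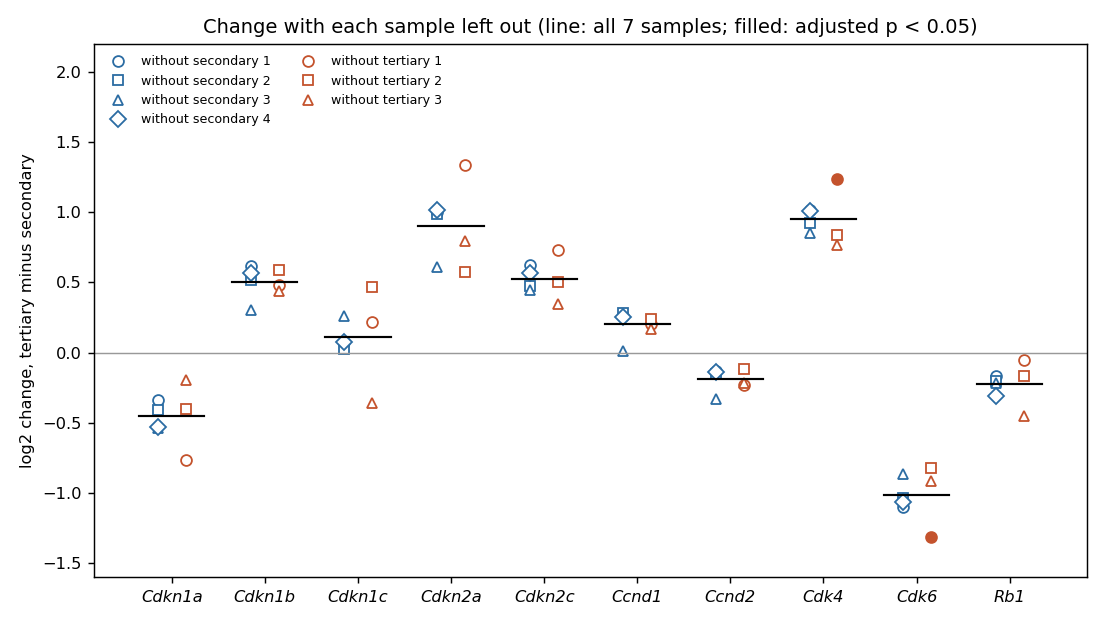
Log2 difference, tertiary minus secondary, of each gene with 1 sample left out in turn (symbols; blue for secondary, orange for tertiary samples) and with all 7 (lines); filled symbols have an adjusted p under 0.05 in limma. Leaving out tertiary glioma 1 moved Cdk4 from 0.95 to 1.24 and Cdk6 from -1.02 to -1.31, the only filled symbols, and Cdkn1c is the gene whose sign changed.

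None of the 10 genes was called without secondary glioma 1, 2, 3 or 4, where 6.42%, 5.09%, 5.57% and 5.34% of all genes were called, or without tertiary glioma 2 or 3, where 4.51% and 4.55% were. Changes of the fit that kept all samples gave calls in few cases. With array weights, which give less weight to samples that deviate, Cdk4, Cdk6 and Cdkn2c passed, against 13.4% of all genes. At an adjusted p under 0.10, Cdk4 and Cdk6 passed, against 11.2%. None passed with no filter on dim probes (5.32% of all genes), quantile normalization (7.21%), a stricter filter at the 50th percentile (8.85%, with Cdkn1c left out), median centring (7.09%), a variance trend (7.21%), a robust prior (7.07%), the variance of each gene on its own (3.6%) or the replicate block (4.4%). With every probe on its own, 7.83% of genes had a called probe, and Cdk6 was the gene of the axis that did.

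Individual samples stood out across the axis. In 6 of the 10 genes the minimum over the 7 samples was in secondary glioma 3 (Cdkn1b, Cdkn2a, Cdkn2c, Ccnd1, Ccnd2 and Cdk4), which was the lowest sample in 25.8% of all genes. The same sample was the highest in Cdk6. Tertiary glioma 3 was the highest in 6 of the 10 (Cdkn1b, Cdkn1c, Cdkn2c, Ccnd1, Cdk4 and Rb1), against 16.5% of all genes. The SD pooled within groups was above the median of all genes, 0.27, in 9 of the 10. The widest was Cdkn2a at 0.67 and the narrowest Ccnd2 at 0.23. In 7 of the 10 the tertiary SD was above the secondary SD, and the exceptions were Cdkn1b, Ccnd1 and Ccnd2. The matching share of all genes was not computed. Over all genes tested the median SD was 0.235 in secondary and 0.238 in tertiary gliomas.

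The genes on which the axis acts were taken from lists chosen by name. Of 17 pocket proteins, E2F factors and subunits of the DREAM complex, which represses cell cycle genes with Rbl1 or Rbl2, 1 was called higher (1.04% of all genes). Values were above 0 in 15 (60.6% of all genes), and the list median was 0.38, against 0.09 over all genes. The gene called was E2f4, the main E2F of resting cells, at 5.88, 5.77, 6.08 and 5.89 in secondary and 6.45, 6.61 and 6.36 in tertiary gliomas. The groups did not overlap, and the difference was 0.57 ± 0.13 (SE; adjusted p = 0.0436 in limma). This call was lost when secondary glioma 1, 2 or 4 was dropped (limma adjusted p = 0.0896, 0.116 and 0.108), and when any tertiary glioma was dropped (0.0518, 0.157 and 0.0889 in turn), while the difference stayed between 0.50 and 0.63. It was also lost with the replicate block (0.201), with a variance trend (0.0632), with the variance of each gene on its own (0.0539) and with every probe tested on its own (0.0567). Among 11 other cyclins and kinases of G1 and S phase, none was called. All 11 had values above 0 (60.6% of all genes), and the list median was 0.37. The lowest p-values were those of Cdk7, the kinase that activates other CDKs (0.62 ± 0.21, adjusted p = 0.125 in limma), and the cyclin Ccne2 (0.65 ± 0.27, adjusted p = 0.197). Averaged over the probes of each gene, Cdk7 differed by 0.43 and Ccne2 by 0.65.

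Of 25 tested E2F target genes of S phase, none passed the threshold of limma. At an unadjusted p under 0.05 there were 6, a share near the 23.8% of all genes. Values were above 0 in 23 (60.6% of all genes), and the list median was 0.63. Those with the lowest p were the thymidine kinase Tk1 (1.22 ± 0.42, adjusted p = 0.133) and the chromatin assembly subunit Chaf1b (1.08 ± 0.40, adjusted p = 0.158). With the probes of a gene averaged, Tk1 differed by 1.22 and Chaf1b by 0.54. On the brightest probe, Chaf1b was at 6.21 in tertiary glioma 1, as in secondary gliomas 3 and 4. The mean of the 25 genes was 7.34, 7.03, 7.38 and 7.64 in secondary and 6.85, 8.64 and 8.48 in tertiary gliomas. Tertiary glioma 1 was the lowest of all 7, and tertiary gliomas 2 and 3 were the highest. The mean of the mitosis genes was 7.31, 6.43, 6.88 and 7.46 in secondary and 6.12, 8.44 and 8.67 in tertiary gliomas. None of 12 was called or had an unadjusted p under 0.05, and all 12 had values above 0, against 60.6% of all genes. The lowest p-values there were those of the kinesin Kif11 (1.00 ± 0.57, adjusted p = 0.329) and the topoisomerase Top2a (1.23 ± 0.72, adjusted p = 0.339). With probes averaged, Kif11 differed by 0.93 and Top2a by 0.71.

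With array weights, which keep all 7 samples, limma called 6 of the 25 S phase genes and 3 of the 17 pocket protein and E2F genes higher, with medians of 0.99 and 0.51, and none of the 12 mitosis genes or of the 11 other cyclins and kinases. In that fit 4.62% of all genes were called higher.

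Without tertiary glioma 1, limma called 20 of the 25 S phase genes, 9 of the 12 mitosis genes, 5 of the 17 pocket protein and E2F genes and 1 of the 11 other cyclins and kinases higher, with 5.42% of all genes called higher in that fit. The list medians were then 1.21, 1.45, 0.59 and 0.62. Without tertiary glioma 2 none was called in any of the 4 lists, and the medians were 0.22, 0.33, 0.32 and 0.31, and without tertiary glioma 3 none was called and they were 0.33, 0.29, 0.34 and 0.34. With both secondary glioma 3 and tertiary glioma 1 left out, 13, 3, 5 and 0 genes were called higher, against 3.85% of all genes. That fit was added after seeing the data. Some marker lists of other cell types were also higher in tertiary glioma 1 than in tertiary gliomas 2 and 3. Its mean was 7.58 against 6.76 and 6.56 for myelin genes, 7.29 against 6.23 and 6.25 for astrocyte markers and 4.97 against 4.71 and 4.72 for endothelial markers. For microglia and macrophage markers it was 6.82 against 6.96 and 6.02, and for neuron markers 6.205 against 6.49 and 5.33. In both of these lists tertiary glioma 1 lay between tertiary gliomas 2 and 3. The part of these cell types in the S phase and mitosis values was not tested.

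**Figure D4:**
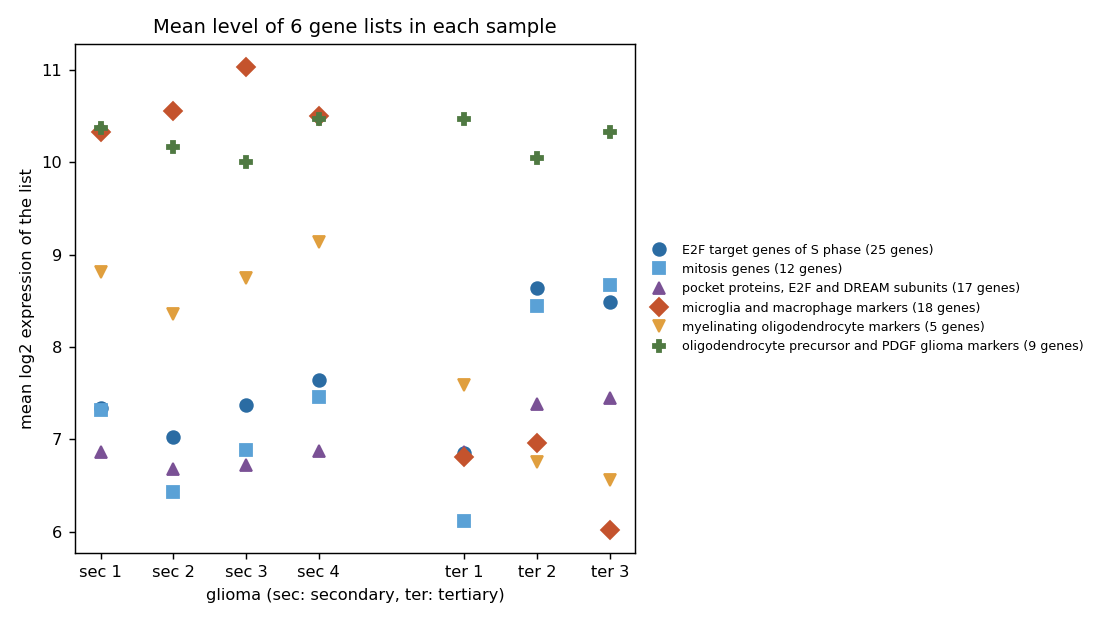
Mean log2 expression (vertical axis) of 6 gene lists in each secondary (sec) and tertiary (ter) glioma, 1 symbol a list. S phase and mitosis genes are highest in tertiary gliomas 2 and 3 and lowest in tertiary glioma 1 (6.85 and 6.12), while microglia and macrophage markers are low in all 3 tertiary gliomas (6.02 to 6.96).

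Of 18 tested regulators of the transcription and protein turnover of the axis, none was called, 13 had values above 0 (60.6% of all genes), and the median was 0.11. At an unadjusted p under 0.05 there was 1 in each direction, against 23.8% of all genes in either direction. With array weights 1 was called in each direction, against 13.4% of all genes. Without tertiary glioma 1, 3 were called higher and 1 lower, against 12.8% of all genes. Without both that sample and secondary glioma 3 the counts were the same, against 10.8%. Bmi1, the polycomb protein that represses Cdkn2a, was at 8.22, 8.09, 7.90 and 8.29 in secondary and 8.30, 8.74 and 9.003 in tertiary gliomas. The groups did not overlap, and the difference was 0.55 ± 0.19 (SE; adjusted p = 0.138 in limma). Klf4, a transcription factor that can activate Cdkn1a, was at 7.82, 8.42, 10.05 and 8.91 against 7.97, 7.63 and 7.36, with a difference of -1.14 ± 0.48 (adjusted p = 0.197 in limma) and the highest value in secondary glioma 3.

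The genes with the most similar profiles were found for the 3 genes of lowest p. The measure was the root mean square difference over the 7 samples, each gene centred on its mean. Nearest to Cdk4 were the integrin subunit Itga7 (0.094), the replication protein subunit Rpa3 (0.11) and the replication kinase Cdc7 (0.11). The secondary mean of Itga7, 3.98, lay just under the level used to leave out dim probes, and its tertiary mean was 4.79. Itga7 passed that filter through its tertiary values, so its likeness to Cdk4 is given as a description. Nearest to Cdk6 were the transcription factor Mafk (0.099), the adaptor Shc1 (0.11) and the lysosomal sulfatase Arsa (0.12). Nearest to Cdkn2c were the nuclear pore protein Ndc1 (0.076), Wasf1 (0.082) and Btbd10 (0.084).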

How the data were processed

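Expression was deposited as log2 values for each probe set on each array, from RMA according to the submitters' processing notes, with no version named. That the scale is log2 was read off the range of the values. RMA forces the arrays to a common distribution, which would mask a change common to most genes, and it shrinks differences of dim probe sets. Per the labels' protocols, 30 ng of RNA was amplified and labelled with biotin. Scan dates were not used here, and batches could not be tested. Each value column belonged to 1 of the 7 samples.

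Of 45101 probes, 34945 had 1 gene symbol in the platform annotation, 932 had several and 9224, controls included, had none. The first kind gave 18193 genes, each read from its probe with the highest mean. Genes whose mean was under the 25th percentile of all probes (3.99) were left out. Groups came from the titles. Differences, tertiary minus secondary, were tested with limma 3.58.1 (lmFit, eBayes) in R 4.3.3 with no covariate, Benjamini-Hochberg adjustment over 14453 genes and a threshold of 0.05. The steps were tested on simulated data. Same-numbered samples of the groups did not deviate together, so the replicate number was used as a block only in an alternative.

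The genes of the axis and all lists were chosen with earlier results of these data known. From each list other than cell type markers, up to 4 called genes were named by lowest p, or the 2 of lowest p where none was called. Ptprc and Cd68 were always named, and for the 3 genes of the axis with the lowest p the 3 nearest profiles. Alternatives were other probe summaries, filters, normalizations, variance models and weights, a replicate block, an adjusted p under 0.10 and leaving out each sample. Leaving out both secondary glioma 3 and tertiary glioma 1 was added after seeing the data. Upstream sequences came from the RefSeq promoter table. Figures used matplotlib 3.10.9 and tables pandas 2.3.3 in Python 3.11.15.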

Additional observations from a re-analysis of the deposited data

Results flagged for a closer look

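In 3 of the 32 genes checked, 1 secondary glioma lay far from the other 3 samples of its group, measured as its gap to the nearest sample divided by the group's range. It was secondary glioma 3 each time, at the low end. The ratio was 0.921 for Cdkn2a, with 4.99 against 6.11 in the nearest sample. It was 0.89 for Ccnd1 (10.47 against 11.20) and 0.882 for Ccnd2 (10.50 against 11.02). Each ratio is above Dixon's 95% critical value for 4 samples. Chance passes it in about 5% of groups, and the 3 genes come from the same array. Microglia and macrophage markers had their highest mean, 11.03, in this sample, and their part in these values was not tested.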

How the results depend on the processing

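The number of the 10 genes called, 0, became 1 with the probes of a gene averaged (Cdk6, its dim probe included). It also became 1 with every probe tested on its own (Cdk6). It was 3 with array weights (Cdk4, Cdk6 and Cdkn2c) and 2 at an adjusted p under 0.10 (Cdk4 and Cdk6). Without both secondary glioma 3 and tertiary glioma 1, a fit added after seeing the data, it was 3. With 1 sample left out in turn it ran from 0 to 2. The number of all genes called, 1066, became 521 with the variance of each gene on its own, 1933 with array weights and 1622 at an adjusted p under 0.10, and ran from 651 to 1852 with 1 sample left out. In fits that tested all 10, between 5 and 7 had values above 0. The filter at the 50th percentile left out Cdkn1c, and 5 of 9 were above 0. Rb1 was at 0.0049 with array weights, and Cdkn2b at 0.054 without both samples. With 1 sample left out, Cdkn1c ran from -0.36 to 0.47, Cdkn2b from -0.38 to 0.26 and Cdkn2d from -0.0049 to 0.52. Over all alternatives, 186 of 199 values of the 10 genes kept sign and side of the threshold, 11 passed it and 2 changed sign. Fits that changed only the filter, the variance model or the threshold, or tested every probe on its own, kept each estimate by design. No sign could change in them. The cause of the changes in other fits was not tested.

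With the replicate block, in which secondary glioma 4 has no partner and adds nothing, 636 genes were called and 0 of the 10, and the E2f4 call was lost. Deviations of same-numbered samples from their group means correlated at 0.036, -0.144 and 0.0145, and 0 of 3 tertiary samples correlated best with their own number.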

Other observations

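Cdkn1c had the same value, 4.19, in 3 of the 7 samples (secondary gliomas 1 and 4 and tertiary glioma 1), and no other gene of the axis shared a value between samples.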
